A study of Xenopus laevis with 6 samples.

Results

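The uninjected animal caps are 2 of the 6 Affymetrix arrays of a Xenopus laevis series, and they were chosen by the sample labels alone. The animal cap is the ectoderm at the top of the frog embryo, cut out as an explant. All caps were at gastrula stage 10.5 and are labelled as of mixed gender, and the series holds 2 arrays each of Mixer-injected caps, Sox17beta-injected caps and uninjected caps. Mixer, a homeodomain factor, and Sox17beta, an HMG-box factor, are transcription factors known for their part in endoderm formation. The labels give no dose for either injection and do not say whether the uninjected arrays came from separate clutches or from pooled caps, so the spread between arrays may be technical.

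Cap cells are pluripotent at the blastula stage, before gastrulation. Left alone, with BMP signalling active, they become epidermis, whereas blocking BMP turns them neural and Nodal or activin signalling turns them into mesoderm or endoderm. They also still carry RNAs that the mother laid down in the egg, some of which are spread through the embryo and some of which are held at the vegetal pole in the germ plasm, away from the cap.

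Signals are log2 values per probe set. Each array carries 44 control probe sets for bacterial and other foreign transcripts that a frog sample lacks. The medians of these absent controls were 3.73 and 3.82 on uninjected arrays 1 and 2, and their highest values were 5.9 and 5.99. A probe set is called above where it exceeded the highest absent control on both uninjected arrays, within where it exceeded it on neither, and split where it did so on 1. With 2 arrays this is a description and not a test of expression. The signal also depends on the probes, so a high signal does not rank a gene's RNA amount against another gene's, and a value within the controls says only that this probe set read no more than they did.

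Of 9013 probe sets named by a single gene symbol, 5876 (65.2%) lay above the absent controls, 483 were split and 2654 lay within. Over all 15491 tested probe sets the share above was 57%. The median named probe set read 6.99. Of 5992 probe sets with no symbol, 44.2% lay above. One further control sets a stricter bar. The probe set for enhanced green fluorescent protein, a jellyfish reporter, read 7.54 and 7.43 on the uninjected arrays, and 3174 named probe sets (35.2%) exceeded it on both. Whether that reading is cross-hybridization was not tested, and values between the absent controls and this reporter are given below as low.

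The strongest signals came from translation, splicing and chromatin genes and from the surface of the early epidermis. The top named probe set was that of eef1a1.S, a translation elongation factor, at 12.34 and 12.75. It was followed by srsf2.L, a splicing factor of the SR family, at 12.33 and 12.57, and by the chromatin protein gene hmgb3.S at 12.21 and 12.64. In all, 4 of the 30 highest belonged to SR splicing factors (srsf2.L, srsf7.S and 2 probe sets of srsf5.S), 3 to histones and 2 to translation factors. The histone probe sets were h2az1.L (11.52 and 12.19), h3-5.L (11.75 and 11.95) and h3-3b.L (11.37 and 11.89).

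Several of the 30 are genes of the ectoderm or of the egg. The keratin krt70.S, an intermediate filament gene of the embryonic epidermis, read 12.22 and 12.39 on its highest probe set. A further krt70.S probe set was low, at 6.49 and 7.39. The hyaluronan synthase has1.S read 11.99 and 12.34. The tight junction claudin cldn6.2.L read 11.86 and 11.62. Both copies of cirbp, which encodes a cold-inducible RNA-binding protein, were in the list, with cirbp.L at 11.72 and 12.3 and cirbp.S at 11.55 and 12.27. The POU-domain pluripotency factor pou5f3.2.L read 11.72 and 11.95, and the BMP ligand bmp7.2.L read 11.63 and 12.02. The related has-rs.S (12.14 and 12.48), anp32c.S, a chromatin-associated phosphoprotein gene (11.49 and 12.25), the lactate transporter slc16a3.L (11.75 and 11.77), the mitochondrial carrier slc25a5.L (11.63 and 11.79), the arginine methyltransferase prmt1.L (11.88 and 11.51) and the polyamine enzyme odc1.L (11.39 and 11.81) stood among them too. The 30 probe sets carry 24 different gene names, because genes with several probe sets or with both copies recur. Among the 30 highest of all tested probe sets, 9 had no single gene name.

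**Figure D1:**
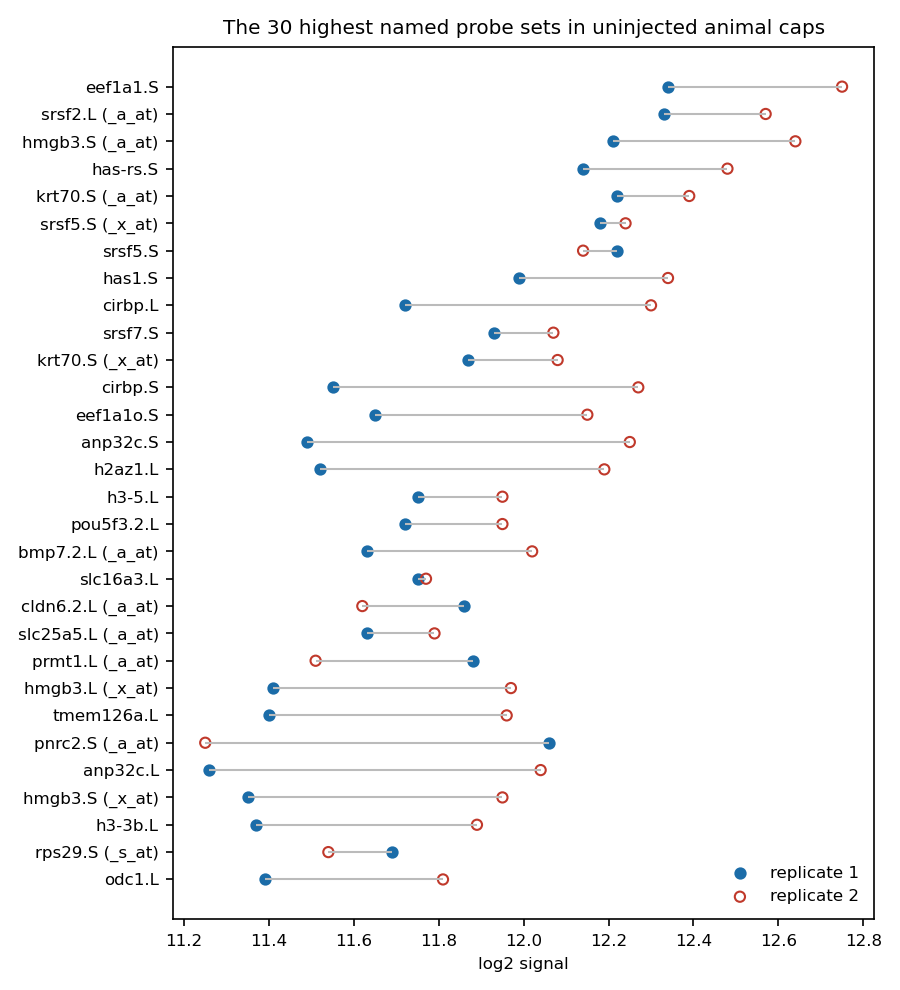
Log2 signal (x axis) of the 30 named probe sets with the highest mean in uninjected caps, 1 row per probe set, with replicate 1 as filled and replicate 2 as open circles. Replicate 2 reads higher in most rows, and pnrc2.S is the widest exception, at 12.06 in replicate 1 and 11.25 in replicate 2.

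Regulators of the epidermis were read next. The list was chosen with earlier results of these data known, so it describes the caps and is no check of the labelled tissue. Of 20 probe sets for 15 epidermal transcription factor genes, 17 lay above the absent controls, 1 was split and 2 lay within, and 11 also exceeded the reporter control (55%, beside 35.2% of all named probe sets). Their median was 8.12. The highest were tfap2a.L, an AP-2 factor needed for epidermal gene expression, at 10.04 and 10.33, and the homeobox gene dlx3.S at 10.14 and 9.9. The zinc-finger gene gata2.L read 9.25 and 9.77, and the grainyhead factor grhl1.L 9.16 and 9.61. Both arrays placed all of these far above the controls. The homeobox genes dlx5.L (8.96 and 9.59), dlx6.S (8.87 and 9.15) and msx1.L (7.64 and 7.85) followed. The BTB-domain gene kctd15.L was low, at 6.52 and 6.88. The split member was gata3.S, at 5.18 and 6.39. The members within were tp63.L, a regulator of stratified epidermis, at 4.11 and 4.32, and the second AP-2 gene tfap2b.L at 4.07 and 3.92.

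Genes of the epidermal cytoskeleton and surface divided sharply. Of 43 probe sets for 22 genes, 33 lay above, 10 within and none was split, with a median of 8.74 and a range from 2.36 to 12.3. Claudin cldn7.L read 11.27 and 11.8, the adhesion gene epcam.S 10.78 and 11.46, and cldn4.L 10.84 and 11.16. By mean, these read below the highest probe sets of krt70.S, has1.S and cldn6.2.L. Uroplakin upk1b.S, a tetraspanin of apical membranes, read 9.3 and 9.62, and keratin krt8.1.S 8.91 and 9.68. The gene ag1.L, a marker of the cement gland in later embryos, read 9.88 and 10.7.

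Other surface genes stayed at the controls. The intelectin itln1.L, a lectin secreted by the larval skin, read 5.63 and 5.89, at the top of the absent range. The cadherin cdh1.S read 3.6 and 4.2, agr2.S 4.13 and 4.52, and the serine protease copy xepsin.S 3.82 and 3.86, while its partner copy xepsin.L read 7.88 and 8.94. The lowest was krt12.2.L, at 2.36 and 2.51. Across the whole keratin family, 16 of 29 probe sets (55.2%) lay above and 13 within, beside 65.2% of named probe sets.

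Genes of the specialised epidermal cells were mostly within the controls. Ciliated cells, ionocytes and small secretory cells arise in the inner ectoderm after gastrulation. Of 15 probe sets for their markers, 5 lay above and 10 within, with a median of 4.88. The ciliogenesis factor rfx2.S read 8.9 and 9.47, the cyclin-family gene ccno.L 8.36 and 8.76 and the ionocyte regulator foxi1.L 8.95 and 8.68. The structural and effector genes read lower. The axonemal dynein dnah9.S reached 5.5 and 5.96 on its higher probe set, the cilium gene tekt2.L 3.19 and 3.37, and the proton pump subunit atp6v1b1.L 4.04 and 4.06.

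**Figure D2:**
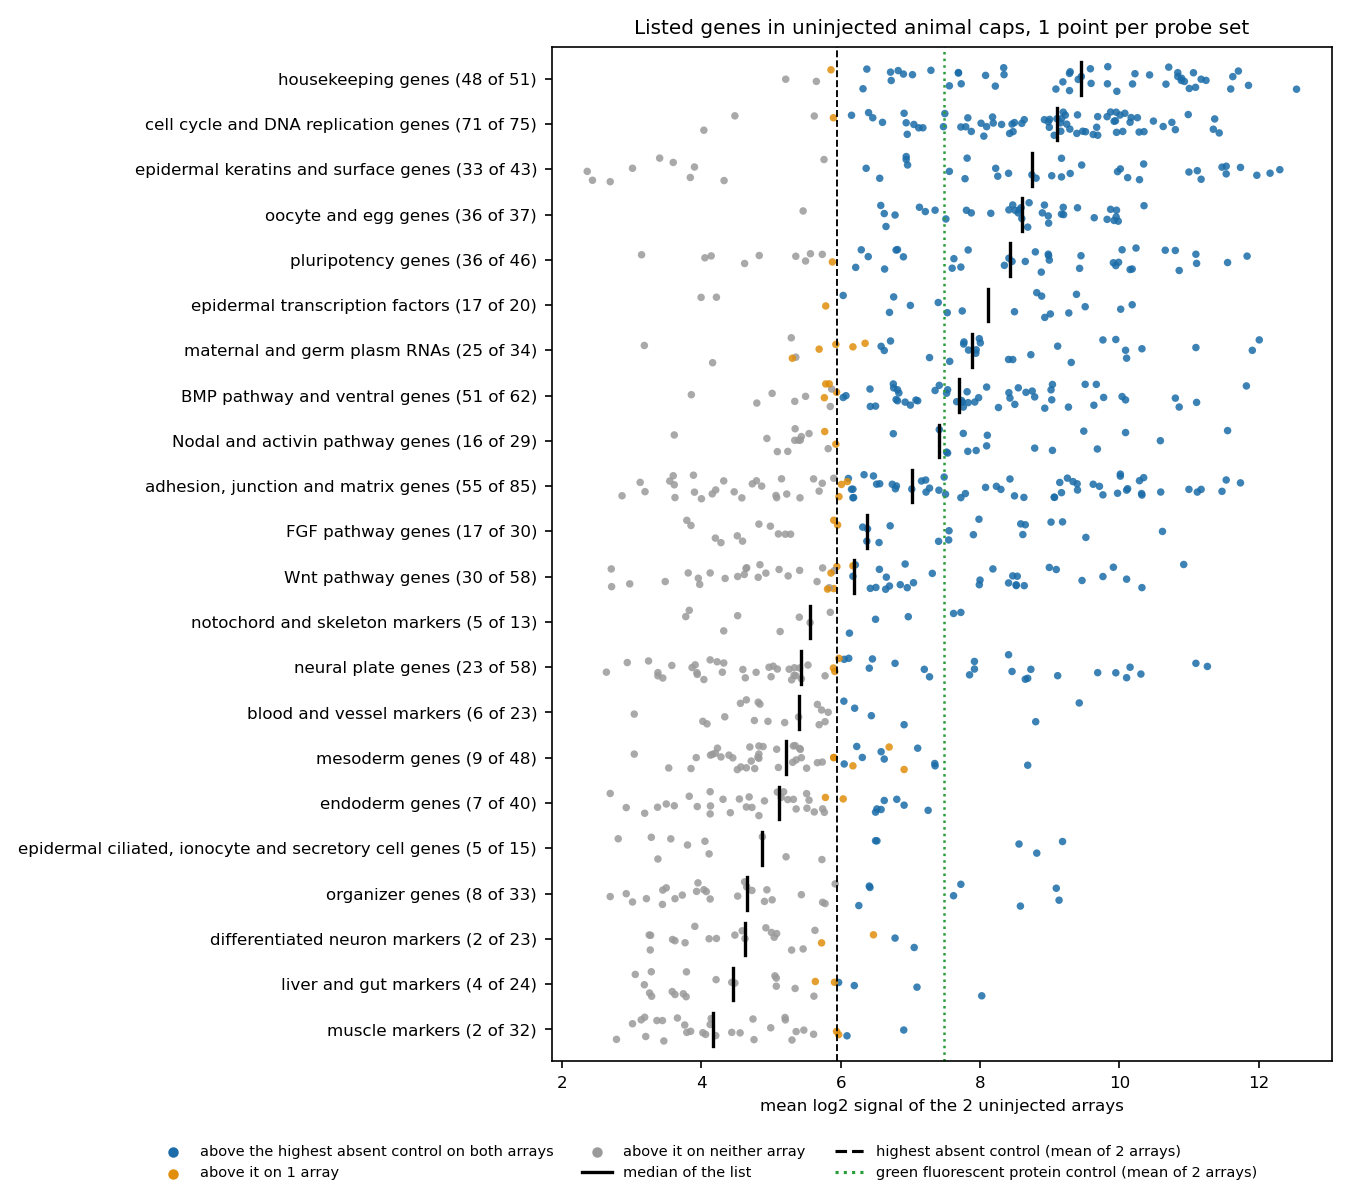
Mean log2 signal of the 2 uninjected arrays (x axis) for every probe set of 22 gene lists, ordered by list median (black tick), with counts above the absent controls in brackets. Muscle, liver, neuron, organizer, endoderm, mesoderm, blood, notochord, neural plate and specialised epidermal cell lists centre left of the highest absent control (dashed line). Lists of epidermal transcription factors, keratins and surface genes, pluripotency, BMP, maternal, egg, cell cycle and housekeeping genes centre right of the reporter control.

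Pluripotency genes were detected about as fully as epidermal ones. Of 46 probe sets for 26 genes, 36 lay above, 1 was split and 9 lay within (median 8.44). Besides pou5f3.2.L, the POU-domain genes pou5f3.1.L (9.38 and 11.1) and pou5f3.3.L (9.23 and 8.74) lay above the reporter control, and pou5f3.1.L differed widely between the arrays. The Nodal co-receptor tdgf1.3.L, a Cripto relative, read 11.9 and 11.21. The HMG-box factor sox3.L read 11.51 and 10.69, and its relative sox2.L 9.16 and 8.14. The homeobox repressor ventx2.1.S read 10.22 and 9.86, the zinc-finger genes sall1.L 10.31 and 9.67 and klf17.L 10.76 and 10.56, and dppa2.L 9.31 and 9.59. All of these exceeded the reporter control, as did 26 of the 46 probe sets of the list (56.5%, beside 35.2% of all named probe sets). The RNA-binding gene lin28b.S was lower, at 7.49 and 6.31, and lin28a.S lay within, at 5.72 and 5.41. The split member was ets1.S (6.04 and 5.72). Also within were foxd3.S, a forkhead gene of the blastula and neural crest, at 4.15 and 4.13, snai1.S at 4.84 and 4.4, and mycn.S at 4.5 and 3.6.

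BMP pathway genes formed the other well-covered signalling group. Of 62 probe sets for 35 genes, 51 lay above, 4 were split and 7 lay within (median 7.7), and 31 exceeded the reporter control. Among ligands, bmp7.2.L stood far over bmp4.S (6.59 and 7.26) and bmp2.L (7.14 and 6.53) in signal, a comparison between probes and not between RNA amounts. The receptor gene bmpr1a.L read 9.58 and 8.96 and the transducer smad1.S 9.79 and 9.48. Targets and feedback genes were bright as well. The inhibitor of differentiation genes id3 and id2.L read 11.28 and 10.94, and 9.93 and 10.25, and the pseudoreceptor bambi.L 9.87 and 9.68. Ventral szl.L, a secreted feedback inhibitor that blocks Chordin-cleaving proteases, was low at 7.49 and 7.22. The split probe sets were bmp7.1.L (5.51 and 6.16), gata3.S, and 1 each of bmp1.L (5.88 and 6) and bmp1.S (5.45 and 6.08). Within were the receptor bmpr2.S (4.73 and 4.86) and the regulators bmper.L (3.83 and 3.88) and tll1.S (4.89 and 5.14).

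Neural plate genes ranged from among the bright probe sets to the level of the controls. Of 58 probe sets for 29 neural plate genes, 23 lay above, 3 were split and 32 lay within (median 5.42). The Hes repressor hes4.L read 11.3 and 11.23, sox11.S 10.61 and 10.01, zic2.S 9.22 and 9.01, the Notch ligand dll1.L 8.68 and 8.69, and irx1.L 8.14 and 8.68. The neuronal RNA-binding gene elavl3.L (7.05 and 6.51) and the forebrain gene six3.L (6.13 and 6.1) lay above at low levels. Other members read near background. The eye-field gene rax.S read 4.08 and 4.17, the midbrain gene en2.L 3.82 and 3.91 and the neural adhesion gene ncam1.S 3.25 and 3.23. The copies of otx2, a head gene, parted, with otx2.S at 6.36 and 6.46 and otx2.L at 5.31 and 5.56. The split probe sets were 1 of neurog2.S (6 and 5.95) and 2 of hes4.S (5.96 and 5.87, 6.06 and 5.73). Further hes4.S probe sets lay far above, at 10.34 and 9.87, and at 9.97 and 9.41.

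Mesoderm genes were largely at the level of the absent controls. Of 48 probe sets for 33 genes, 9 lay above, 5 were split and 34 lay within (median 5.21), and dll1.L was the only one over the reporter control. The pan-mesodermal T-box gene tbxt.S, known as Brachyury, read 4.78 and 4.75. The myogenic genes myod1.L and myf5.L read 5.68 and 5.79, and 5.29 and 5.43, and the presomitic gene msgn1.L 4.6 and 4.53. The Wnt ligand wnt8a.L read 5.36 and 5.46 and the T-box gene eomes.L 5.41 and 5.23. All of these lay inside the control range on both arrays. Apart from dll1.L, each probe set above read under the reporter control on at least 1 array. The somite-clock repressor hes7.1.L read 8.05 and 6.65, and hand2.S 6.29 and 6.17. Another hes7.1.L probe set lay within, at 4.9 and 3.89. The split members were the receptor aplnr.L at 7.87 and 5.95, aplnr.S at 7.68 and 5.71, wnt11b.L at 6.56 and 5.79, foxf1.L at 5.65 and 6.15, and fgf8.L at 5.73 and 6.07. Both aplnr copies read higher in replicate 1.

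Endoderm genes gave 7 probe sets above, 2 split and 31 within, of 40 for 27 genes (median 5.12). None of the 40 exceeded the reporter control. The highest was sox18.S, an HMG-box gene related to sox17, at 7.69 and 6.82, followed by a2m.S, a protease inhibitor gene, at 6.88 and 6.94. The pioneer factor gene foxa1.S read 6.62 and 6.42. The list also holds the injected genes, and mixer.L (6.46 and 6.54) and the gene-specific Sox17beta probe set (6.91 and 6.7) lay above too. The other regulators of endoderm named next were taken from the members within the controls. The probe sets of sox17a.S and sox17a.L read 4.28 and 4.34, and 4.22 and 4.03. Those of gata4.L and gata6.L read 5.2 and 5.09, and 5.55 and 5.69. The head inducer cer1.S read 4.74 and 4.71, hhex.L 3.39 and 3.6, and the Nodal ligand nodal1.L 5.08 and 5.1. Split were bix1.3.L (6.14 and 5.93) and gata5.S (5.53 and 6.03).

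For the genes injected into the other caps, the baseline was low and not uniform across probe sets. The gene-specific probe set of sox17b.1.S read 6.91 and 6.7 and lay above, whereas the one shared by similar transcripts read 5.25 and 5.11 and lay within. For Mixer, mixer.L read 6.46 and 6.54 and lay above, and mixer.S read 5.71 and 5.32 and lay within. Each above reading was lower than the reporter control.

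Of the organizer list, genes of the dorsal signalling centre, 8 of 33 probe sets lay above and 25 within (median 4.65). The homeobox gene crx.S read 9.34 and 8.93, the secreted Wnt antagonist sfrp2.S 9.56 and 8.63 and not.L 8.17 and 7.28. The organizer genes named next were taken from the members within the controls. The homeobox gene gsc.S read 3.62 on both arrays, the BMP antagonist nog.L 3.25 and 3.17, lhx1.L 3.76 and 3.69, the Wnt antagonist dkk1.S 4.46 and 4.84 and the early dorsal gene sia1.L 5.88 and 5.96. In bulk tissue, fewer cells of a type and less RNA per cell cannot be told apart, for any of these readings.

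Nearly all oocyte and egg genes were detected, and the list shares some of its cyclins and kinases with the cell cycle list. Of 37 probe sets for 24 oocyte and egg genes, 36 lay above and 1 within (median 8.6), and 28 exceeded the reporter control. The cyclin ccna1.L read 10.99 and 9.72, the phosphatase cdc25a.L 10.23 and 9.74, and the meiotic kinase mos.L 10.05 and 9.23. The egg kinase wee2.L, an inhibitor of Cdk activity, read 9.59 and 8.75. Genes known mainly from the egg were also bright. The zona pellucida (egg coat) gene zp2.L read 8.63 and 8.78, the egg chromatin protein npm2.S 9.13 and 8.66, the linker histone h1-8.S 8.66 and 8.54, and zar1.S, a regulator of maternal mRNA, 8.28 and 8.55. The member within was 42sp50.L, an elongation factor of young oocytes, at 5.3 and 5.62.

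Maternal and germ plasm RNAs gave 25 above, 5 split and 4 within, of 34 probe sets (median 7.89). The β-catenin gene ctnnb1.L read 9.91 and 10.74, dand5.S, a Nodal and BMP antagonist, 10.34 and 9.84, and plin2.S, a lipid droplet gene, 9.31 on both arrays. Members known from the vegetal pole or germ plasm lay in all 3 classes. The germline helicase ddx4.L read 7.37 and 8.16 and the translational repressor nanos1.L 6.75 and 6.68. The T-box gene vegt.L read 7.25 and 6 and vegt.S 7.14 and 6.02, barely above the controls on array 2. The split members were bicc1.S (7.01 and 5.69), wnt11b.L, the TGF-β ligand gdf1.S (5.81 and 6.05), the helicase ddx25.L (5.99 and 5.39) and a second cirbp.L probe set (6.32 and 4.29). Within were the germ cell gene dazl.L at 4.65 and 3.67, germes.L at 3.21 and 3.15, grip2.L at 5.31 and 5.27 and trim36.L at 5.26 and 5.45.

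Cell cycle genes were bright as a group, with 71 of 75 probe sets above (median 9.11). The cyclins ccnb1.2.L (11.37 and 11.5) and ccnb2.L (11.67 and 11.03), the mitotic activator cdc20.L (11.16 and 10.82) and the replication clamp pcna.L (10.85 and 10.41) led it. The shares above of 3 further signalling lists and of the adhesion list were near or under the 65.2% of all named probe sets. Of the Nodal and activin list, 16 of 29 probe sets (55.2%) lay above, among them tgif2.S (10.78 and 10.4) and smad2.L (9.81 and 9.17), while the ligands nodal1.L, nodal2.L (5.33 and 5.76) and nodal6.L (5.09 and 5.39) lay within. The FGF list had 17 of 30 (56.7%) above, with the receptor fgfr4.S at 10.63 and 10.61, while fgf4.S (4.75 and 4.9) and fgf3.L (4.47 and 4.56) lay within. The Wnt list had 30 of 58 (51.7%) above, with the receptor fzd7.L at 10.96 and 10.89 and wnt5b.S within at 5.71 and 5.61. The ligands named here were taken from members within the controls. Among adhesion and matrix genes, 55 of 85 (64.7%) lay above, with cdh3.L, the main cadherin of the early embryo, at 9.62 and 9.81, itgb1.L at 10.73 and 10.46 and fibronectin fn1.S at 10.04 and 10.6.

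Markers of other, later tissues were mostly within. Of 32 muscle probe sets, 2 lay above (ckm.L at 6.65 and 7.16, tpm2.L at 6 and 6.18). Of 23 neuron probe sets, 2 lay above (gap43.L at 6.95 and 7.16, elavl3.L at 7.05 and 6.51), and of 24 liver and gut probe sets, 4 did. None of the muscle or neuron probe sets exceeded the reporter control, and 1 of the liver and gut probe sets did. The notochord and skeleton list had the highest share above of these lists, 5 of 13 (38.5%), with 1 over the reporter control. Of 23 blood and vessel probe sets, 6 lay above, including hba-l5.L, a globin gene, at 9.32 and 9.53 and spib.S at 8.68 and 8.92. The other haemoglobin probe sets hba1.S (5.3 and 5.49) and hbg1.L (4.61 and 4.68) lay within, so the globin genes were not alike. Housekeeping genes gave 48 of 51 above.

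The split members of the remaining lists read close to the controls on at least 1 array. In the Wnt list they were gsk3b.L (6.07 and 5.82), tcf7.S (6.32 and 5.48), apc.L (5.99 and 5.63) and a probe set of fzd8.S (5.58 and 6.14), besides wnt11b.L. In the Nodal and FGF lists they were gdf3.S (5.95 and 5.59) and dusp1.S (6.25 and 5.66), besides gdf1.S and fgf8.L. The junction gene pkp3.S (5.02 and 7.17) showed the widest gap among them. Others were sdc2.L (6.13 and 5.89), itga3.L (6.1 and 5.85), the checkpoint kinase chek1.S (6.32 and 5.47) and hprt1.L (6.09 and 5.63). Muscle tnni2.S (6 and 5.94) and tnnt3.S (5.91 and 5.97), neuronal prph.L (5.84 and 7.1) and syt1.L (5.39 and 6.06), and 2 probe sets of ambp.L (5.67 and 6.15, 5.22 and 6.05) complete them.

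The 2 uninjected arrays correlated at 0.971 over 15491 probe sets. Each correlated more closely with the array of its own number in Mixer caps, at 0.985 for number 1 and 0.986 for number 2. The median absolute difference between the uninjected arrays was 0.27 over named probe sets, and 440 of them (4.88%) differed by over 1, 289 being higher in replicate 1 and 151 in replicate 2. Some groups shifted together between the arrays. Probe sets for heterogeneous nuclear ribonucleoproteins, which bind nuclear RNA, had a median difference (replicate 1 minus 2) of -1.18 among Mixer arrays, -0.76 among Sox17beta arrays and -0.74 among uninjected arrays. On the uninjected arrays 30 of these 35 were higher in replicate 2, as were 31 of 43 keratin and surface probe sets. Of the oocyte and egg list, 28 of 37 were higher in replicate 1 (median difference 0.39), and 51 of 75 cell cycle probe sets were (0.31). Over all named probe sets the median difference was -0.02.

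Single probe sets differed further. Among those higher in replicate 1 were tsen54.L, a tRNA splicing endonuclease gene (7.6 and 5.35), baz2a.L (9.69 and 7.46), satpb.L (10.42 and 8.26) and btrc.S (7.91 and 5.75). The glycosyltransferase gene ugt3a2.L read 4.64 and 8.25, the widest gap. Also higher in replicate 2 were krt12.4.S (6.38 and 9.25), cdc42se2.S (4.89 and 7.08), pkp3.S (5.02 and 7.17) and mab21l3.S (7.5 and 9.45). All of these gaps had the same direction in Mixer caps, where ugt3a2.L read 4.9 and 8.38 and tsen54.L 7.85 and 5.12. In Sox17beta caps krt12.4.S (4.64 and 4.77) and pkp3.S (5.09 and 5.24) differed little between the arrays. All these values lay under the highest absent controls of those arrays (6.62 and 6.09), and why the gap was small there was not tested. The hybridization controls, RNAs added at hybridization, averaged 10.4 on uninjected array 1 and 9.21 on array 2. On arrays 1 and 2 they averaged 10.6 and 8.89 in Mixer caps, and 10.5 and 9.25 in Sox17beta caps. Whether these differences between arrays have a biological source was not tested.

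**Figure D3:**
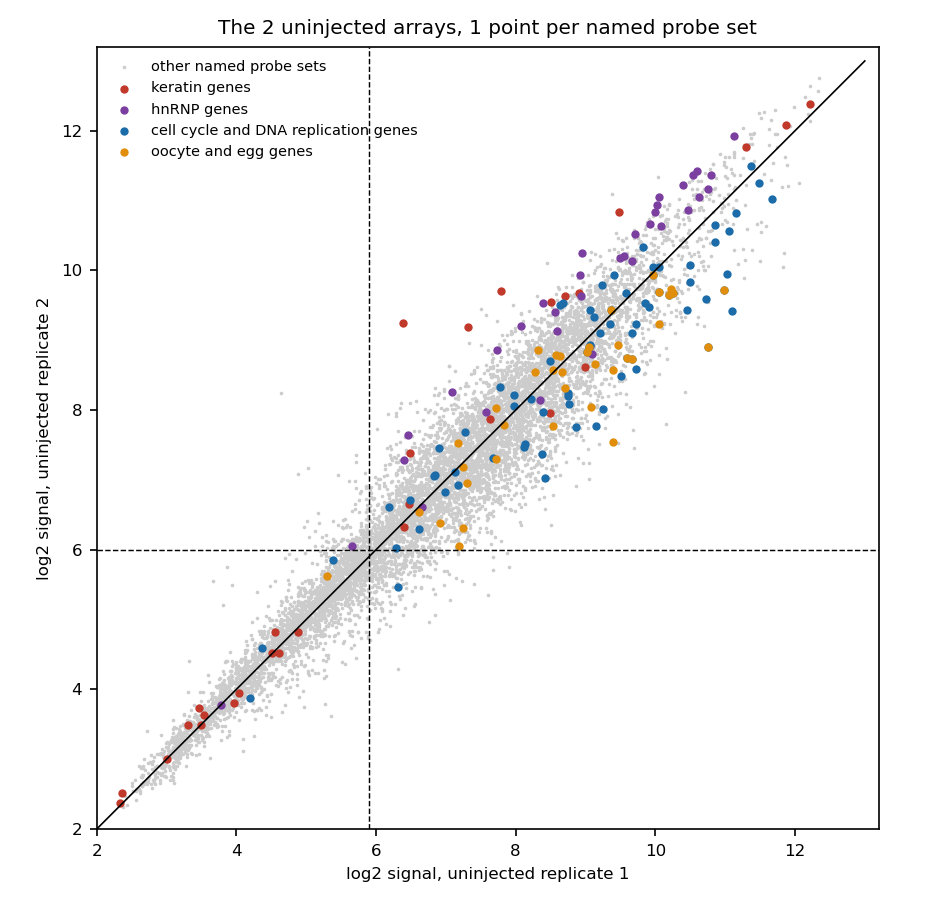
Log2 signal of every named probe set on uninjected replicate 1 (x axis) and replicate 2 (y axis), with 4 gene groups in colour, the line of equality, and dashed lines at each array's highest absent control (5.9 and 5.99). Ribonucleoprotein (hnRNP) and several keratin points lie above the line, and many cell cycle and egg points lie below it.

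The baseline was then set against the injected caps, which share these 2 uninjected arrays. In limma fits over all 15491 tested probe sets, an adjusted p under 0.05 called 6 probe sets in Mixer caps (0.0387%) and 3 in Sox17beta caps (0.0194%), all higher than in uninjected caps. With the replicate number as a block, which the correlation of same-numbered arrays calls for, the counts were 203 (1.31%) and 844 (5.45%). The calls below come from the blocked fit unless stated, and the counts rested on single arrays. With the block, leaving out any array left 0 to 2 calls in Mixer caps. In Sox17beta caps it left 582 without Sox17beta replicate 1, 3 without Sox17beta replicate 2, and 0 when any 1 of the other 4 arrays was left out, where 1659 to 2029 had an unadjusted p under 0.05.

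Many of the epidermal regulators were lower in Sox17beta caps. The lists here and below were chosen with earlier results of these data known. Their counts beside the shares of all tested probe sets are therefore a description and not a test. Those shares also include the probe sets within the absent controls. Of 20 epidermal transcription factor probe sets, 13 fell there and 0 rose (3.56% and 1.88% of all tested), with a median difference of -1.42, beside 0.03 over all named probe sets. In Mixer caps 4 fell and 1 rose (0.775% and 0.536% of all tested), with a median difference of -0.57. The gene gata2.L read 7.51 and 7.64 in Sox17beta caps, against 9.25 and 9.77 in uninjected caps, a difference of -1.94 (limma adjusted p = 0.00311 with the block, 0.218 without). The homeobox gene msx2.L went the other way in Mixer caps, with 9.7 and 8.84 there, against 6.94 and 6.58 in uninjected caps (difference 2.51, limma adjusted p = 0.00124 with the block). The groups did not overlap in either case. The share of all tested probe sets that separate in this way was not counted, so the separation adds no support. Mixer caps showed lower kctd15.L, at 4.39 and 4.45 against 6.52 and 6.88 in uninjected caps (-2.28, limma adjusted p = 0.0262 with the block).

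Of the 43 keratin and surface probe sets, 15 fell and 1 rose in Sox17beta caps (3.56% and 1.88% of all tested). In Mixer caps 0 fell and 2 rose (0.775% and 0.536% of all tested). Bright surface genes were not all alike. The highest krt70.S probe set read 10.98 and 9.98 in Sox17beta caps, against 12.22 and 12.39 in uninjected caps (-1.825, limma adjusted p = 0.0218 with the block). The highest cldn6.2.L probe set read 11.98 and 11.06 in Sox17beta caps, against 11.86 and 11.62 in uninjected caps, and was not called. The hyaluronan synthase has1.S read 10.85 and 11.14 in Sox17beta caps, against 11.99 and 12.34 in uninjected caps (-1.17, limma adjusted p = 0.00741 with the block). The claudin cldn4.L read 9.44 and 9.01 in Sox17beta caps, against 10.84 and 11.16 in uninjected caps (-1.77, limma adjusted p = 0.0072 with the block). The claudin cldn6.1.L read 10.2 and 10.02 in Sox17beta caps, against 10.35 on both uninjected arrays, and was not called. Of the keratins with wide gaps between uninjected arrays, krt12.4.S read 4.64 and 4.77 in Sox17beta caps, both below the 6.38 and 9.25 of uninjected caps (limma adjusted p = 0.0481 with the block, 0.893 without).

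Some pluripotency and BMP probe sets passed the test in Sox17beta caps, most of these lower, and all of these calls needed the block. Of 46 pluripotency probe sets, 21 fell and 1 rose in Sox17beta caps (3.56% and 1.88% of all tested). In Mixer caps 2 fell and 2 rose (0.775% and 0.536% of all tested). Of 62 BMP probe sets, 28 fell and 0 rose in Sox17beta caps (3.56% and 1.88% of all tested). In Mixer caps 5 fell and 2 rose (0.775% and 0.536% of all tested). The difference between the injections was not tested for these lists, and the lists share members such as id3 and ventx2.1.S. The gene klf17.L read 9.14 and 8.35 in Sox17beta caps, against 10.76 and 10.56 in uninjected caps (-1.92, limma adjusted p = 0.00344 with the block). The zinc-finger gene sall1.L read 9.1 and 8.51 in Mixer caps, against 10.31 and 9.67 in uninjected caps (-1.19, limma adjusted p = 0.00823 with the block). The egg gene btg4.S, a deadenylation factor that clears maternal mRNA, read 10.97 and 10.08 in Sox17beta caps, against 9.39 and 7.55 in uninjected caps (2.06, limma adjusted p = 0.00462 with the block). Of the 37 oocyte and egg probe sets, 5 rose and 0 fell in Sox17beta caps (1.88% and 3.56% of all tested). In Mixer caps 2 rose and 0 fell (0.536% and 0.775% of all tested).

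Some endoderm genes that lay within the controls in uninjected caps lay above them after injection. Of 40 endoderm probe sets, 17 lay above in Mixer caps and 7 in Sox17beta caps, against 7 in uninjected caps. Over all 9013 named probe sets these counts were 5855, 5057 and 5876. The bar is each array's own highest absent control, and it was higher on Sox17beta replicate 1 (6.62) than on the uninjected arrays (5.9 and 5.99). The counts of Sox17beta and uninjected caps are therefore not on 1 bar. In Mixer caps 12 rose and 1 fell (0.536% and 0.775% of all tested), and in Sox17beta caps 7 rose and 1 fell (1.88% and 3.56%). The list holds the injected genes: mixer.L and mixer.S are among the 12, and both probe sets of sox17b.1.S are among the 7 and are the 2 that passed there without the block. The regulator gata4.S, above in Mixer caps and split in Sox17beta caps, read 7.3 and 8.41 in Mixer caps and 6.41 and 7.48 in Sox17beta caps, against 3.85 and 4.41 in uninjected caps (limma adjusted p = 0.0003 and 0.000885 with the block). Its partner copy gata4.L was called in Mixer caps only. It read 8.66 and 8.8 there and 5.53 and 5.3 in Sox17beta caps, against 5.2 and 5.09 in uninjected caps (limma adjusted p = 0.000184 and 0.326 with the block). The ligand gene pnhd.L, split in Mixer caps, read 6.74 and 5.68 in Mixer caps and 4.05 and 3.57 in Sox17beta caps, against 3.94 and 3.71 in uninjected caps. Its rise in Mixer caps was 2.39 (limma adjusted p = 0.00603 with the block). A second pnhd.L probe set, within in every group, read 4.29 and 3.79 in Mixer caps, against 3.27 and 3.1 in uninjected caps (0.85, limma adjusted p = 0.0332 with the block). Of 33 organizer probe sets, 8 rose and 2 fell in Sox17beta caps (1.88% and 3.56% of all tested). In Mixer caps 2 rose and 1 fell (0.536% and 0.775% of all tested). The BMP and activin antagonist fst.L read 6.17 and 6.57 in Sox17beta caps, against 4.87 and 5.01 in uninjected caps (1.43, limma adjusted p = 0.00352 with the block). Both fst.L values in Sox17beta caps lay near the absent controls of their arrays, which reached 6.62 and 6.09.

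**Figure D4:**
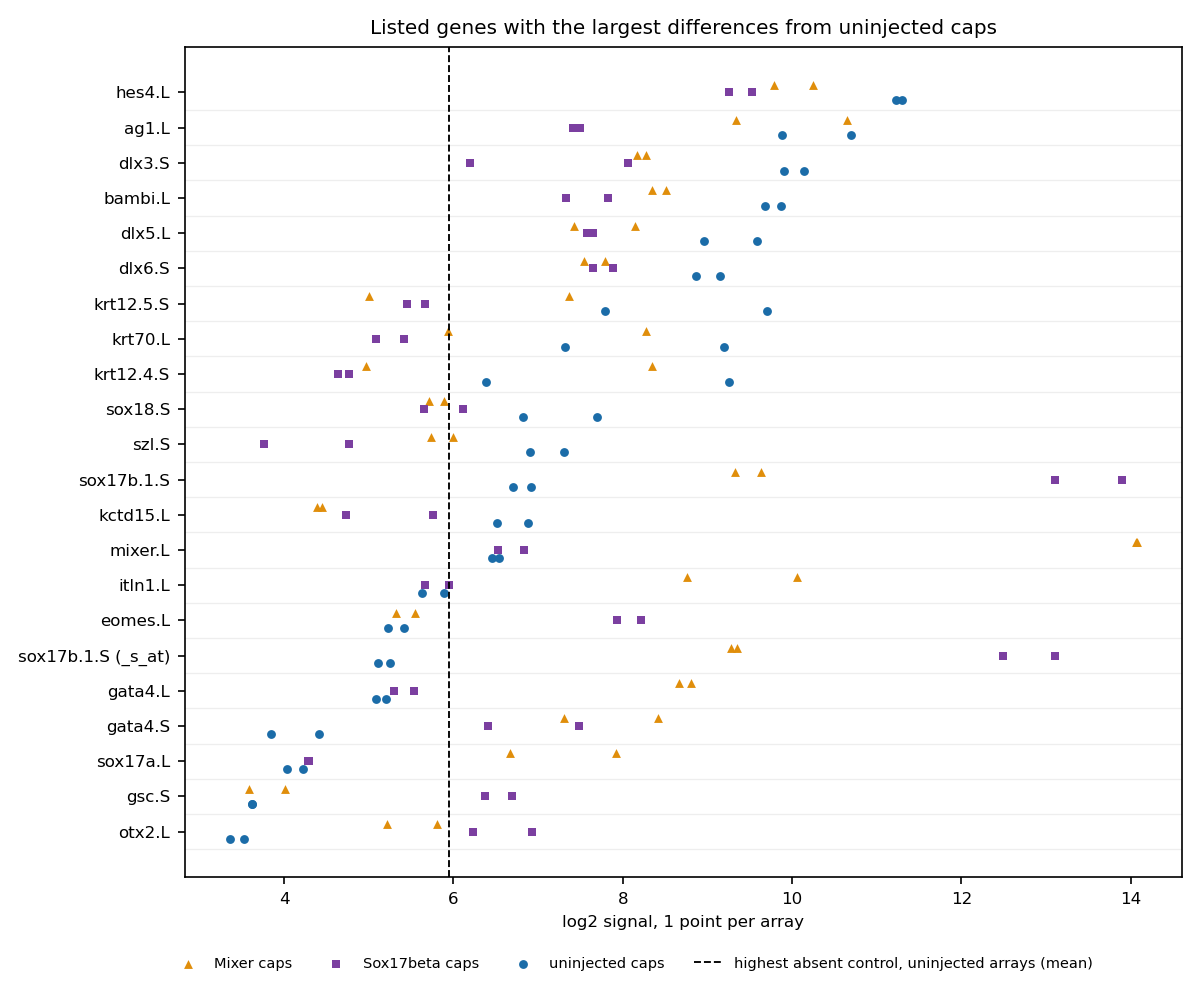
Log2 signal per array (x axis) of the listed genes with the largest called differences from uninjected caps, up to 6 each way per comparison, with Mixer caps as triangles, Sox17beta caps as squares and uninjected caps as circles, ordered by the uninjected mean. Genes at the top, such as hes4.L and dlx5.L, read lower in injected caps, and genes at or below the dashed line of the highest absent control, such as gata4.L and gsc.S, read higher in 1 or both injected groups.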

How the data were processed

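The deposited values are log2 expression values per probe set, made by the authors with RMA per the submitters' processing notes. This method removes background, equalizes the arrays' distributions and summarises probes. The labels state neither its version nor the chip software nor a joint run of the 6 arrays. Values lay between 2.24 and 14.07, array medians were between 6.5 and 6.55, and nothing further was normalized.

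Of 15611 probe sets, 120 controls were left out. Of the 15491 tested, the platform annotation gave 9304 a single symbol, 195 several and 5992 no symbol. Matching 9227 identifiers to RefSeq genes changed 2 symbols, and 291 placeholders were treated as unnamed. Names ending in .L or .S are the copies of a gene on long or short chromosomes of this duplicated genome. Probe sets ending _a_at read transcripts of 1 gene, _s_at similar transcripts, and _x_at may cross-hybridize. No genome build is named, so no coordinates are given.

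Groups were compared with lmFit and eBayes in limma 3.58.1 (R 4.3.3), two-sided, all 6 arrays in 1 fit, with Benjamini-Hochberg adjustment over tested probe sets. The code was tested on simulated data. Plots used matplotlib 3.10.9 (Python 3.11.15). The labels number the replicates 1 and 2 in each group. Deviations from group means correlated at 0.867 (Mixer and uninjected), 0.732 (Sox17beta and uninjected) and 0.776 (Mixer and Sox17beta) between same-numbered arrays, so the blocked fit is given beside the fit without a block. With 2 arrays per group, the number of arrays limits the precision.

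The gene lists, their members and the rule for named genes were chosen with earlier results of these data known. The rule took the 30 highest named probe sets, up to 6 of the highest and 4 of the within members of each list, every split member, copies that fell in different classes, the 10 widest gaps between the uninjected arrays (1 of these is not reported here), and up to 6 called list members per comparison and direction. Other genes named in the comparisons with injected caps are members of their lists, chosen after their values were seen.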

Additional observations from a re-analysis of the deposited data

Results flagged for a closer look

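The enhanced green fluorescent protein control, a reporter sequence absent from frogs, read 7.35 and 7.32 on Mixer arrays, 7.7 and 7.39 on Sox17beta arrays, and 7.54 and 7.43 on uninjected arrays 1 and 2. On the uninjected arrays it lay above the highest absent control (5.9 and 5.99) and above 60.7% and 59.4% of named probe sets. The red reporter controls read lower on the uninjected arrays, pAsRed2 at 5.77 and 5.72 and pDsRed1-1 at 4.95 and 4.84. The cause was not tested.

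Of 15491 probe sets, limma called 9 between the injected groups in the unblocked fit, and 241 once replicate number was blocked. The 9 include 5 listed probe sets, given here with the adjusted p without a block. The difference, Mixer minus Sox17beta caps, was 7.38 for mixer.L (0.00105), 3.31 for gata4.L (0.0173) and 2.89 for sox17a.S (0.04). It was -2.63 for eomes.L (0.04) and -3.48 for the shared probe set of sox17b.1.S (0.04). In uninjected caps mixer.L lay just above the absent controls and the other 4 lay within them.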

How the results depend on the processing

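The count of named probe sets above the absent controls was 5876, and 3174 with the green fluorescent protein control as the bar, an alternative chosen after seeing the data. With that bar the lists gave 11 epidermal transcription factor probe sets above, 3 ciliated, ionocyte and secretory, 15 neural plate, 1 mesoderm, 0 endoderm, 4 organizer, 31 BMP, 17 Wnt, 10 FGF, 34 adhesion, 0 muscle, 0 neuron, 2 blood, 1 liver and 1 notochord, and the other 7 lists moved by less than 1.5 times. With the median plus 3 SD of the absent controls they gave 3 ciliated, 4 mesoderm, 3 endoderm, 5 organizer, 1 muscle, 1 neuron, 3 blood, 2 liver and 3 notochord. With the 95th percentile they gave 16 mesoderm, 4 muscle and 10 blood. From a single array, muscle and neuron markers gave 2 to 4 each. Quantile normalization keeps the order within an array, so it cannot change these counts. With the replicate number as a block, limma called 203 probe sets in Mixer caps and 844 in Sox17beta caps, where the fit without it called 6 and 3. Without the block, quantile normalization gave 3 and 5, and an intensity trend gave 13 in Sox17beta caps. Leaving out 1 array gave 0 to 1 in Mixer caps and 0 to 5 in Sox17beta caps, and with the block, added after seeing the data, 0 to 2 and 0 to 582. Counts of 0 without an uninjected array had 194 to 751 probe sets at an unadjusted limma p under 0.05 without the block, and counts of 0 with it had 788 to 2029. Over the alternatives for named genes, 307 kept their side of the threshold, 32 passed it newly, 44 lost it and 0 changed sign. These sides were taken against the fit without a block, where most named differences were not called. Keeping a side therefore mostly meant staying uncalled, and does not measure how well the blocked calls hold. Counts of lists near the controls, such as mesoderm, endoderm, muscle and blood, depend on the bar.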

Other observations

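Further families differed in how fully they were detected in uninjected caps. Of 95 ribosomal protein probe sets 83 lay above the absent controls, of 35 for heterogeneous nuclear ribonucleoproteins 33, and of 20 for SR splicing factors 19, beside 65.2% of named probe sets. Hox genes, which pattern the trunk after gastrulation, gave 5 above and 23 within. The highest was hoxd8.L at 6.75 and 6.83, and none exceeded the green fluorescent protein control. Of 18 T-box probe sets 4 lay above. Among forkhead genes, where 9 of 24 lay above, foxi4.2.S read 11.25 and 11.61 and foxi4.2.L 10.82 and 10.83. A second foxi4.2.L probe set lay within, at 5.56 on both arrays. The HMG-box gene sox15.L read 10.82 and 11.53, the highest of the Sox genes by mean.

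Probe sets of the same gene often fell in different classes. Of 1263 gene copies with several probe sets, 646 had all above, 223 all within and 254 (20.1%) had both kinds. Of 1016 genes with both an L and an S copy measured, 618 had both above, 161 both within, 83 only the L copy above and 74 only the S copy above, taking the highest probe set of each copy, and 80 had a split. The replication helicase gene mcm5.L read 9.06 and 9.43 and mcm5.S 4.37 and 4.59. The transcription factor spib.S read 8.68 and 8.92, and spib.L reached 4.14 and 4.53. Among listed genes the L copy alone lay above for cdh2, dag1, gap43, gata1, itga5, mcm5, mixer, sdc2, sdha, spry2, tpm2, vim and xepsin, and the S copy alone for cldn5, fzd8, neurog2, otx2, sox18 and spib. Whether the probes or the copies differ was not tested.

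Classes also shifted between groups. Of the named probe sets within the controls in uninjected caps, 32 lay above in Mixer caps and 17 in Sox17beta caps. Of those above in uninjected caps, 27 lay within in Mixer caps and 185 in Sox17beta caps. The highest absent control of Sox17beta replicate 1 was 6.62, where the other arrays had 5.9 to 6.09.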
